A study of Drosophila melanogaster with 6 samples.

Results

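Mitochondria carry ribosomes of their own, which translate the few proteins encoded in the mitochondrial genome, and these are core subunits of the respiratory chain and of the ATP synthase. All protein components of the mitochondrial ribosome are encoded in the nucleus, made in the cytosol and imported. In *Drosophila* their genes carry the prefix mRpL for the large subunit, which forms the peptide bond, and mRpS for the small subunit, which reads the mRNA. Their promoters are typical of housekeeping genes that all growing cells use. The genes described here are all protein-coding genes of the dm6 annotation (BDGP6.54) on the chromosome arms whose symbol is mRpL or mRpS followed by a digit, 73 of 13968 genes, with 47 for the large and 26 for the small subunit. The rule uses the symbol alone, so *tko* and *bonsai*, which also encode small-subunit proteins, are not among them.

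Open chromatin was mapped in *Drosophila* wing imaginal discs, the larval precursors of the wing, with ATAC-seq, in which the Tn5 transposase inserts adapters into accessible DNA. All 3 genotypes carried *tub-Gal4*, which is active in all cells, and *tub-Gal80*, the heat-sensitive repressor of Gal4, and all larvae spent 7 days at 17 °C and 2 days at 31 °C, the temperature at which Gal4 acts. The control expressed GFP, another genotype expressed an RNAi against *Cdk1*, the kinase that drives entry into mitosis (*Cdk1-i*), and the third expressed *fzr*, an activator of the complex that degrades mitotic cyclins (*fzr*). Each genotype has 2 libraries from pooled discs, which hold epithelium together with associated myoblasts and other cells. The methods call the 2 libraries biological replicates, and no label says which larvae or dissections they share, so p-values measure only the spread between these libraries. Each library has its own list of 27119 to 36715 peaks, and no read counts were used, so the depth is unknown.

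The libraries have limits that touch every result below. The 4 lists of the libraries labelled *Cdk1-i* and *fzr* were deposited under names that exchange these genotypes, and the labels are followed here, so that each genotype name below means the library labelled so. *Cdk1* had a peak in 5 of 6 lists and *fzr* in 6 of 6, which does not check the labels. An RNAi acts on RNA, and the presence of a peak at the 5′ end does not measure expression from the *fzr* transgene. The library labelled *fzr* replicate 2 stands apart: it has the fewest peaks (27119, against 33335 to 36715), the widest (median 442 bp, against 306 to 373) and the lowest share of X-linked peaks (14.1% of the autosomal number, against 18.5% to 19.6%). Among markers of the disc epithelium, 9 of 10 had a peak in all 6 lists and *sd* had a peak in 2, against 3 of 5 for myoblasts, 2 of 3 for haemocytes, 1 of 3 for neurons, and no peak in any list at 2 tracheal and 3 fat body markers. Of the markers of the testis germ line, *topi* had a peak in 3 lists and *bam* in 1.

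The 5′ ends of the mitochondrial ribosomal protein genes lay close to those of other genes. For 54 of 73 (74%) the 5′ end of another protein-coding gene was within 500 bp, against 28.9% of the 13895 other protein-coding genes and 39.1% of the 92 genes for cytosolic ribosomal proteins, which are included in these others. The neighbour was transcribed away from the gene, in a head-to-head arrangement, for 51 (69.9%), against 24.7% of the others. The median distance to the nearest other 5′ end was 384 bp, and the shares for the large subunit (74.5%) and the small subunit (73.1%) were alike. Neighbours include *Prosbeta2*, which encodes a proteasome subunit, at *mRpL39*, the histone methyltransferase gene *trr* at *mRpL16*, the integrin gene *if* at *mRpL22* and *Cdk1* at *mRpS7*. These shares come from the annotation and are given as a description, with no test. They set how far a peak can be assigned, because a window around the 5′ end often holds the promoter of a pair of genes.

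The bases next to the 5′ end were searched for 7 short sequences on both strands. The 300 bases searched span 250 bases before the 5′ end and 50 from it on. The E-box CAGCTG, a palindrome bound by bHLH proteins and common in fly core promoters, was present in 40 of 73 (54.8%), against 17.4% of the other protein-coding genes and 9.78% of the cytosolic ribosomal protein genes. It lay close to the 5′ end, within the 50 bases on either side of it, in 35 (47.9%), against 9.09% and 7.61%. Among genes in a head-to-head arrangement, CAGCTG was found in 54.9% of the 51 head-to-head members and in 24.3% of the 3432 other head-to-head genes. TATCGATA, the DNA replication-related element (DRE) bound by DREF, was present in 15 (20.5%), against 9.3% of other genes and 30.4% of cytosolic ribosomal protein genes. Head-to-head members did not have the DRE more often, with 8 of 51 (15.7%) against 18.2% of the other head-to-head genes. With no other 5′ end within 500 bp it was found in 7 of 19 members (36.8%) and 6.32% of the others. GGTCACAC, the core of Ohler motif 1, was found in 8 (11%, others 7.67%). TATAAA, the letters of the TATA box, was found at any position in 34 (46.6%, others 45.8%). GAGAG, bound by the GAGA factor, was found in 12 (16.4%, others 29.8%) and the E-box CACGTG in 5 (6.85%, others 4.18%). The letters CANNCNCTA were found in 4 (5.48%, others 6.88%). Matches of different motifs may overlap and were counted for each motif. A match of letters is not evidence that a factor binds there.

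CAGCTG near the 5′ end occurred both with and without a peak. It was present in 9 of the 15 members with a peak in all 6 lists (60%) and in 17 of the 32 with a peak in none (53.1%). To show this, the 80 bases around the 5′ end, 40 before it and 40 from it on, are printed for the 5 members with a peak in all 6 lists and CAGCTG in these bases, outside the chromosome arm left out of the printed sequences, and below them for the first 5 by name of the 14 members without a peak for which the same holds. Capitals mark CAGCTG. The sequences are from the RefSeq dm6 assembly, each on the strand of its gene, and were chosen after their values were seen.
mRpL33: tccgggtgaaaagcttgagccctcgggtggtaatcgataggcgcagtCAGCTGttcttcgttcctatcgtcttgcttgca
mRpL48: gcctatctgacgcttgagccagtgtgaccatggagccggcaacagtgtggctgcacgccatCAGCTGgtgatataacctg
mRpS6: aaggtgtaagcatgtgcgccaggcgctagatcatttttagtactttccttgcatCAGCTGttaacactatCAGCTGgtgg
mRpL21: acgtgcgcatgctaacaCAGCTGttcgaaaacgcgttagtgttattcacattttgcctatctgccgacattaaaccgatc
mRpS21: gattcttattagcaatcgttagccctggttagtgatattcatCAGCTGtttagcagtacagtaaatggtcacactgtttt
mRpL11: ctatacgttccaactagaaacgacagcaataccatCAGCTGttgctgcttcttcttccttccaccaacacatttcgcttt
mRpL2: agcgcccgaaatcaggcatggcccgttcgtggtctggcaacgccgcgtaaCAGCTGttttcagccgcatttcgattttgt
mRpL23: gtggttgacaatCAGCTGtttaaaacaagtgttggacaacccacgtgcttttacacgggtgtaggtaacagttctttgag
mRpL28: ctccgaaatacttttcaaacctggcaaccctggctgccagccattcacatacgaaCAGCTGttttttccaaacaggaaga
mRpL35: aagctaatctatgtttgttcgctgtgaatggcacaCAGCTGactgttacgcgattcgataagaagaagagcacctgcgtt
The first of these, *mRpL33*, spans chrX:4322192-4322271, *mRpL48* chr2L:1710422-1710501, *mRpS6* chr3L:4364510-4364589, *mRpL21* chr3L:19255022-19255101 and *mRpS21* chr3R:13381770-13381849. The 5 without a peak are *mRpL11* at chr3R:14511798-14511877, *mRpL2* at chr3L:11120807-11120886, *mRpL23* at chr3L:2373665-2373744, *mRpL28* at chr2L:4973936-4974015 and *mRpL35* at chr3R:22023487-22023566. *mRpS6* holds CAGCTG more than once in this window. In 6 of the 10 the first match begins after the annotated 5′ end, and in *mRpL21*, *mRpL11*, *mRpL23* and *mRpL35* it begins before it.

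**Figure D1:**
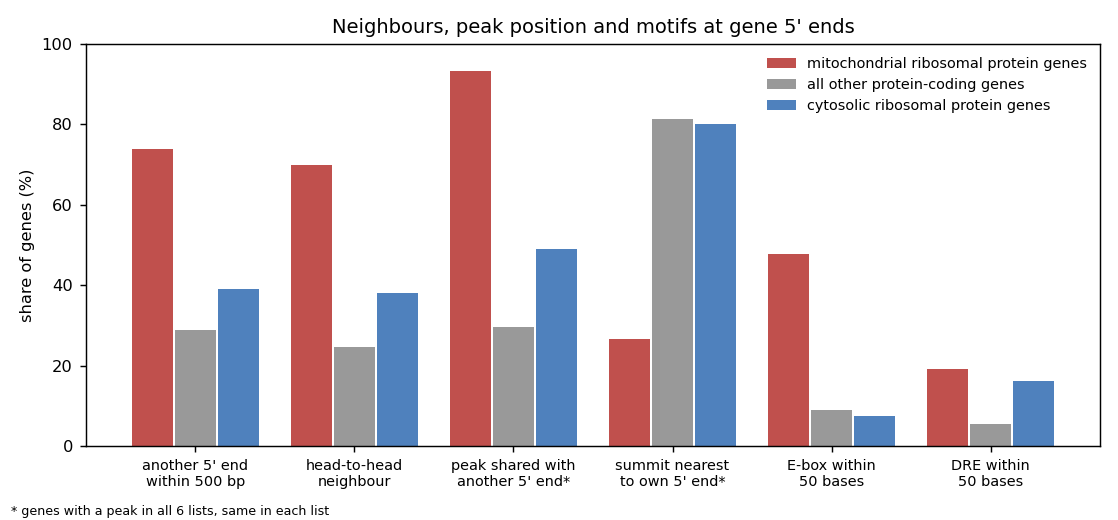
Share of genes (y axis, %) with each feature (x axis), for the 73 mitochondrial ribosomal protein genes (red), the 13895 other protein-coding genes (grey) and the 92 cytosolic ribosomal protein genes (blue, also part of the grey). Another 5′ end within 500 bp was found for 74%, 28.9% and 39.1%, and the E-box within 50 bases of the 5′ end for 47.9%, 9.09% and 7.61%. The bars with a star count only genes with a peak in all 6 lists, of which 86.7%, 28.2% and 44.4% had another 5′ end within 500 bp.

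A peak was assigned to a gene where it overlapped the 500 bp on either side of the 5′ end by at least 1 bp. Of the 73 genes, 41 (56.2%) had a peak in at least 1 list, against 50.9% of all protein-coding genes, and 15 (20.5%) had a peak in all 6, against 25.4% of all. The 32 genes without a peak in any list (43.8%, all genes 49.1%) include *mRpL12*, which forms the stalk that recruits translation factors, and *mRpS29*, the orthologue of mammalian DAP3. Their nearest peak in any list lay 557 to 16657 bp away. The median was 2185.5 bp, against 2038 bp for the 6823 other genes without a peak. Exactly 1 list had a peak for 13 genes (17.8%, all genes 7.79%). Of the cytosolic ribosomal protein genes, 48.9% had a peak in all 6 lists. In bulk discs, fewer cells with an open promoter and less opening in each cell cannot be told apart.

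A peak was found at 28 and 23 of the 73 genes in the GFP libraries (mean 25.5 ± 3.54, SD, n = 2), at 23 and 24 in those labelled *Cdk1-i* (23.5 ± 0.707) and at 29 and 26 in those labelled *fzr* (27.5 ± 2.12). The ranges of GFP and both other genotypes overlapped. Those of *fzr* and *Cdk1-i* did not, but a split of 2 libraries against 2 cannot give an exact permutation p below 0.333. No member had a peak in both libraries of one genotype and in neither of another, in any of the 3 comparisons and either direction. Over all protein-coding genes, such gains and losses were 1.2% and 0.809% for *Cdk1-i* against GFP, 0.73% and 1.24% for *fzr* against GFP, and 1.13% and 1.65% for *fzr* against *Cdk1-i*. The replicates of *fzr* shared a peak at 18 of the 37 genes with one in either, those of GFP at 19 of 32 and those of *Cdk1-i* at 22 of 25.

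**Figure D2:**
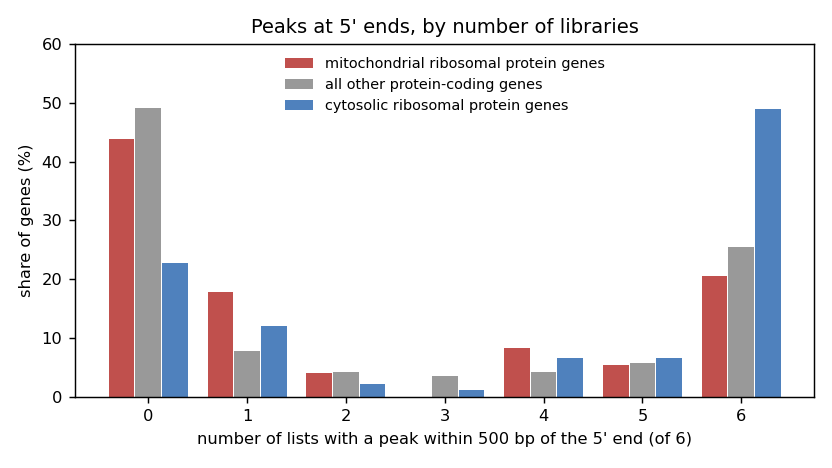
Share of genes (y axis, %) by the number of lists with a peak within 500 bp of the 5′ end (x axis, 0 to 6), for the mitochondrial ribosomal protein genes (red), all other protein-coding genes (grey) and the cytosolic ribosomal protein genes (blue). Of the red bars, 43.8% stand at 0, 17.8% at 1 and 20.5% at 6, and the cytosolic ribosomal protein genes reach 48.9% at 6.

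Of the 13 genes with a peak in a single list, 6 had it in *fzr* replicate 2, 3 in *fzr* replicate 1, 2 in each GFP library and 0 in the libraries labelled *Cdk1-i*. Over the 1075 other protein-coding genes of this kind, *fzr* replicate 2 likewise held the most, with 44.5%. Without *fzr* replicate 2, a peak in exactly 1 of the 5 remaining lists was found for 8 members (11%, all genes 6.46%) and a peak in all 5 for 17 (23.3%, all genes 28.5%). The genes seen in *fzr* replicate 2 alone are *mRpL17*, *mRpL50*, *mRpL51*, *mRpS7*, *mRpS10* and *mRpS31*. At *mRpL17* the edge of the nearest peak lay 616 to 629 bp from the 5′ end in the other 5 lists and 329 bp away in *fzr* replicate 2, where that peak was 1630 bp wide. The genes seen in *fzr* replicate 1 alone are *mRpL1*, *mRpL4* and *mRpL13*, with peaks of 154 to 168 bp, in the library with the shortest peaks (from 143 bp, against minima of 160 to 197 bp in the others). *mRpS25* and *mRpL19* had a peak in GFP replicate 1 alone, and *mRpS9* and *mRpS11* in GFP replicate 2 alone.

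Between these extremes, *mRpL32*, *mRpL30* and *mRpL27* had a peak in 2 lists, 6 genes in 4 and 4 genes in 5. *mRpL32* had its peak in GFP replicate 2 and *fzr* replicate 2, at percentiles 72.9 and 64.8. The percentile is the rank of the fold enrichment of a peak within its own list, from 0 for the weakest to 100 for the strongest peak. *mRpL30* and *mRpL27* had theirs in GFP replicate 1 and *fzr* replicate 1. Of the 6 genes with 4 lists, *mRpL38*, *mRpL44* (which holds an RNase III-like fold), and *mRpS18B* lacked a peak in GFP replicate 2 and *fzr* replicate 2, *mRpL40* in *Cdk1-i* replicate 2 and *fzr* replicate 2, *mRpL9* in GFP replicate 2 and *Cdk1-i* replicate 1, and *mRpS23* in *Cdk1-i* replicate 1 and *fzr* replicate 1. Of the 4 genes with 5 lists, *mRpL24* and *mRpS14* lacked a peak in *fzr* replicate 2, *mRpS17* in GFP replicate 2 and *mRpL34* in GFP replicate 1. None of these 10 genes with 4 or 5 lists lacked its peak in both libraries of a genotype. The 3 small-subunit paralogues of the bacterial S18 protein differed, with *mRpS18B* in 4 lists and *mRpS18A* and *mRpS18C* in none.

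**Figure D3:**
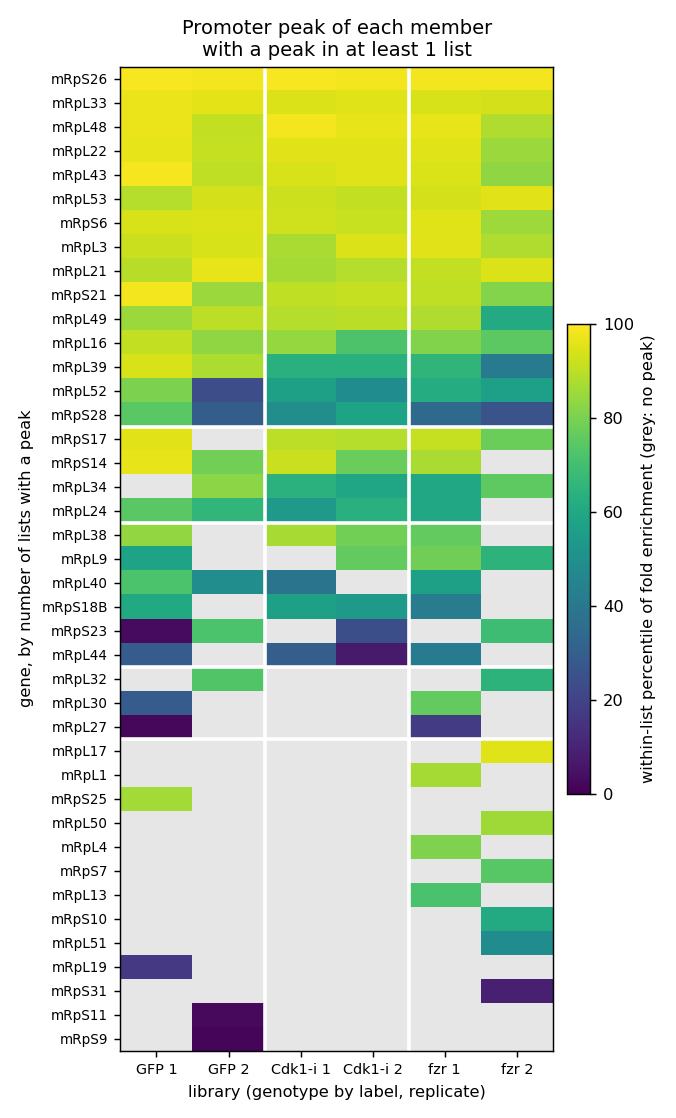
Within-list percentile of the fold enrichment (colour, 0 to 100, grey where no peak was found) of the promoter peak of the 41 members with a peak in at least 1 list (rows), in the 6 libraries (columns, genotype by label and replicate). White lines separate rows by the number of lists with a peak, from 6 at the top to 1 at the bottom, and *fzr* replicate 2 holds 6 of the 13 peaks found in a single list.

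By chromosome arm, a peak in all 6 lists was found at 5 of 11 members on X (others 24.94%), 4 of 12 on 2R (27.57%), 4 of 17 on 3L (28.1%), 1 of 12 on 2L (20.42%) and 1 of 21 on 3R (26.09%). The 5 on X are *mRpL3*, *mRpL16*, *mRpL22*, *mRpL33* and *mRpL49*, and *mRpS21* is the 1 on 3R. The wider machinery of mitochondrial gene expression was listed mainly as transcription factors, translation factors and tRNA synthetases that are imported into mitochondria. The list also holds *tko*, *bonsai* and others such as *OXA1L* and *bsf*, and 35 of its genes were matched. Of these, 26 (74.3%, all genes 49.1%) had no peak in any list and 5 (14.3%, all genes 25.4%) had one in all 6. Among the 5 are *mEFTu1*, the elongation factor that delivers tRNAs, at percentiles 99.48 to 99.96, and *ArgRS-m* at 99.53 to 99.97. Neither *TFAM*, which packages mitochondrial DNA, nor the mitochondrial RNA polymerase gene *PolrMT* had a peak within 500 bp in any list.

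In many members with a peak, its summit was nearer to another gene. Over the 15 members with a peak in all 6 lists, the summit was nearest to the gene's own 5′ end in every list for 4 (26.7%), against 81.4% of the other genes with 6 peaks. These 4 include *mRpL53*, whose 5′ end is also that of *CG33155* on the same strand. Among other genes that also have a second 5′ end within 500 bp, the share was 50.1%, and 3 of the 13 such members (23.1%) had it. The peak given to the gene was also the one given to another gene in every list for 14 of 15 (93.3%, others 29.5%). These shares lie near those of genes with another 5′ end within 500 bp, 86.7% of the 15 and 28.2% of the others with 6 peaks. The peak covered the gene's own 5′ end in every list for 5 (33.3%, others 42.3%). In single lists, the summit was nearest to the own 5′ end in 30.8% to 51.7% of members with a peak, against 80.8% to 85.1% of the others. Both extremes of the members came from the libraries labelled *fzr*, 51.7% in replicate 1 and 30.8% in replicate 2. For 13 of the 15 (86.7%, others 70.8%) the summit lay upstream in all 6 lists.

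The members fall into kinds by where the summit stood. Positions are given from the own 5′ end, with negative values upstream. At *mRpL48* the summit lay at −18 to −12 bp and at *mRpL53* at −121 to −68 bp. At *mRpL49* it lay at −525 to −494 bp and was nearest to its own 5′ end because the next one, of *CG4404*, is at −1087 bp. *mRpL39*, a large-subunit protein with no bacterial counterpart, had its summit at 0 to 20 bp in all 6 lists, and the 5′ end of *Prosbeta2* lies at −285 bp. At *mRpS26*, *mRpS6*, *mRpL3*, *mRpL22* and *mRpL33* the summit lay between −492 and −292 bp, nearer to the 5′ end of *CG13698*, *Cip4*, *Graf*, *if* and *norpA*, respectively. The *mRpS26* summit, for example, was at −367 bp in each of the 6 lists, and the 5′ end of *CG13698* is at −430 bp. At *mRpL16*, *mRpL21*, *mRpS21*, *mRpL52* and *mRpS28* the position of the highest summit changed by more than 100 bp between lists. At *mRpL21* it was at −1 bp in GFP replicate 1 and at −254 to −234 bp in the other 5, near *rept*, which encodes a helicase of chromatin remodelling complexes. At *mRpL16* it was at −233 bp in GFP replicate 2 and *Cdk1-i* replicate 2 and at −57 to −41 bp in the other 4, so that replicates of a genotype differed. At *mRpS21*, next to the chaperone gene *Droj2* at −297 bp, it was at −713 and −714 bp in GFP, −295 and −296 bp in *Cdk1-i* and −295 and −713 bp in *fzr*, so that GFP and *Cdk1-i* did not overlap.

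**Figure D4:**
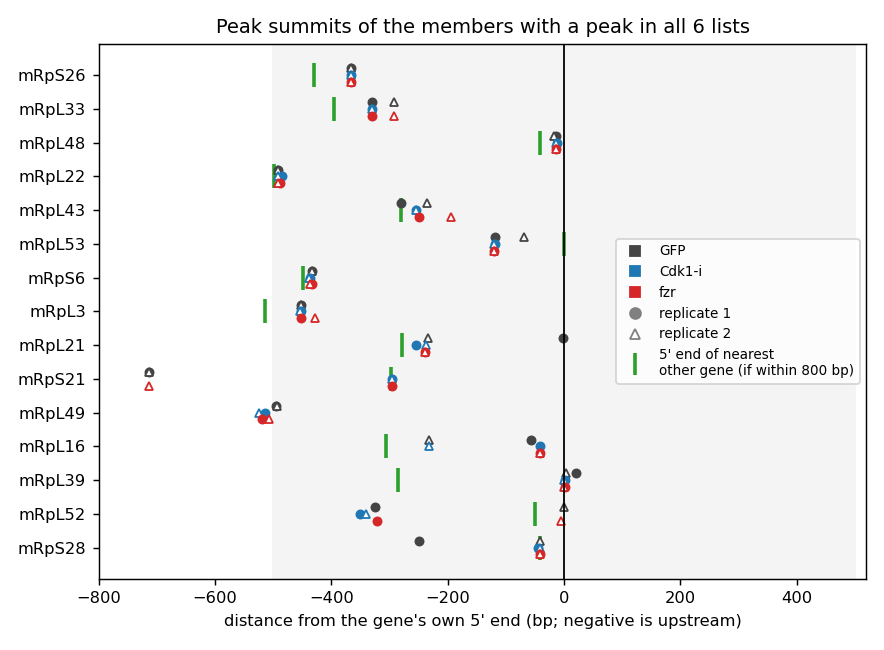
Distance of the peak summit from the gene's own 5′ end (x axis, bp, negative is upstream, black line at 0) for the 15 members with a peak in all 6 lists (rows), with replicate 1 as filled circles and replicate 2 as open triangles, coloured by genotype, and the 5′ end of the nearest other gene as a green bar where it lies within the plotted range. The grey area is the window of 500 bp on either side. The summits of *mRpS26* stand at −367 bp in all 6 libraries, near the green bar at −430 bp, and those of *mRpL39* at 0 to 20 bp.

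The level of the peaks was compared as the percentile within each list, since fold enrichment depends on the background of its library. Of the 15 members with a peak in all 6 lists, 9 had a mean percentile above 90. The highest was *mRpS26* (FBgn0036774, chr3L:18106579-18107499, plus strand), a small-subunit protein with no bacterial counterpart, with percentiles of 99.1 and 98.3 (GFP), 99.0 and 98.4 (*Cdk1-i*) and 98.2 and 98.3 (*fzr*). *mRpL33* (FBgn0040907, chrX:4321764-4322231, minus strand), a homologue of bacterial L33, followed with 97.1 and 95.9 (GFP), 94.8 and 95.2 (*Cdk1-i*) and 94.1 and 93.7 (*fzr*). Next came *mRpL48* (mean over 6 libraries 94.4), *mRpL22*, the homologue of a bacterial protein that lines the exit tunnel for the new peptide (93.1), *mRpL43* (92.6) and *mRpL53* (92.5). For each of these 6 the lowest library was at or above 83.2, the value of *mRpL43* in *fzr* replicate 2. At *mRpL48* and *mRpL53* the summits were near their own 5′ ends, but the 5′ end of *CG17660* is at −41 bp from that of *mRpL48* and the 5′ end of *CG33155* coincides with that of *mRpL53*, so these peaks cannot be assigned to 1 gene of each pair. At the other 4 the summits were nearer to the 5′ ends of their neighbours.

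At the low end, *mRpS28* had percentiles of 74.5 and 29.4 (GFP), 49.3 and 58.1 (*Cdk1-i*) and 34.7 and 25.8 (*fzr*), and *mRpL52* 80.2 and 23.7 (GFP), 56.8 and 48.5 (*Cdk1-i*) and 62.1 and 56.3 (*fzr*). In both, the GFP libraries lay farther apart than any genotype means did. *mRpL39* (FBgn0036462, chr3L:14997981-14999666, minus strand) had 94.0 and 87.6 (GFP), 63.5 and 63.6 (*Cdk1-i*) and 65.4 and 40.9 (*fzr*). *mRpL16* (FBgn0023519, chrX:1890256-1891482, plus strand), the homologue of a bacterial protein next to the site of peptide bond formation, had 91.0 and 83.2 (GFP), 84.2 and 71.9 (*Cdk1-i*) and 81.1 and 74.8 (*fzr*). *mRpL49* had 84.9 and 89.96 (GFP), 88.7 and 89.6 (*Cdk1-i*) and 88.0 and 61.3 (*fzr*), so that *fzr* replicate 2 alone was low. *mRpS21* had 98.1 and 84.8 (GFP), 90.5 and 91.1 (*Cdk1-i*) and 90.4 and 81.4 (*fzr*), with GFP replicate 1 alone above the rest. The remaining 3, *mRpS6*, *mRpL3* and *mRpL21*, kept between 85.2 and 96.1 in all 6 libraries.

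The promoter sequences of the 2 highest and the 2 lowest members by mean percentile outside the chromosome arm left out of the printed sequences are given next, as the ends of the range of levels. *mRpL39* is also the member with the largest change between genotypes. Each spans 250 bases before the 5′ end and 50 from it on, on the strand of the gene. Capitals mark the DRE, TATAAA and both E-boxes.
mRpS26: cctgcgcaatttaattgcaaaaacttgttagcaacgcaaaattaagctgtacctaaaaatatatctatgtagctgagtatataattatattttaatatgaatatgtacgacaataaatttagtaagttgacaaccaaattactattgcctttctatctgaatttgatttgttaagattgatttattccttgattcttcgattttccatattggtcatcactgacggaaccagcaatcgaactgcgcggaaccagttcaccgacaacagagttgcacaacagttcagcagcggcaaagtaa
mRpL33: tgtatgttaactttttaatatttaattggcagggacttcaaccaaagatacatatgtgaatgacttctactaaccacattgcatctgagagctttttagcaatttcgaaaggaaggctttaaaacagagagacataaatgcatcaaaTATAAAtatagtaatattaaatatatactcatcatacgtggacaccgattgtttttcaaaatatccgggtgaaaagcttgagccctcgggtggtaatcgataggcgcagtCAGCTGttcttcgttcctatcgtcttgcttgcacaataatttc
mRpL16: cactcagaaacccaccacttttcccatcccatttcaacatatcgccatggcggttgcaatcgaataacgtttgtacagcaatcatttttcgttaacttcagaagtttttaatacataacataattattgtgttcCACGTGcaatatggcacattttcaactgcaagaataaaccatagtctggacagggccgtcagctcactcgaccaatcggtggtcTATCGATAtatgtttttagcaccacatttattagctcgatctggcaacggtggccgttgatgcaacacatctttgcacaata
mRpL39: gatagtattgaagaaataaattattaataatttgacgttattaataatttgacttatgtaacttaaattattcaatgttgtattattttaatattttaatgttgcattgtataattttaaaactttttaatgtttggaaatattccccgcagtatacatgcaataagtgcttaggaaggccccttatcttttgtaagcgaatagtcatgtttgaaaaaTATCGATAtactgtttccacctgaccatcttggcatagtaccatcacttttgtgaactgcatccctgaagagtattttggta
*mRpS26* spans chr3L:18106329-18106628, and none of these motifs is in it. Its summit, at −367 bp, is outside the printed bases. *mRpL33* spans chrX:4322182-4322481 and has TATAAA starting at −103 and the E-box CAGCTG at 7, counted from the 5′ end as 0. Its summit at −331 to −292 bp was again outside. *mRpL16* spans chrX:1890006-1890305 and *mRpL39* chr3L:14999617-14999916. In both, the DRE starts at −32, and peaks covered the 5′ end in all 6 lists. *mRpL16* also has the E-box CACGTG, starting at −116. These motifs also occur at other levels. The DRE is also in the promoters of *mRpL22* and *mRpL3*, with mean percentiles of 93.1 and 91.9, and CAGCTG is also in those of *mRpS28* and *mRpL52*, the lowest members. The GC content of the 4 is 34.3%, 35.7%, 41.3% and 28.3%, against a median of 34.7% over the members and 38% over the other genes.

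The question of the comparisons with GFP was whether blocking entry into mitosis, by knockdown of *Cdk1* or by *fzr*, goes with a different accessibility of these promoters. In *Cdk1-i* against GFP, the median change over the 15 members was −0.125 percentile points, with 6 higher and 9 lower, and over the 3535 other promoters with a peak in all 6 lists it was −0.000907. With no overlap between the libraries of the 2 genotypes, 0 members were higher (19.1% of all promoters tested) and 4 lower (22.1%). The 4 are *mRpL39*, *mRpL21*, *mRpS6* and *mRpL33*, with changes of −27.2, −4.96, −2.25 and −1.48 points. limma, fitted on all 3550 promoters with Benjamini-Hochberg adjustment, called 0 promoters in either direction. At an unadjusted p under 0.05, 90 promoters were higher (2.54%) and 103 lower (2.9%), with 0 and 1 of the members, *mRpL39*.

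*mRpL39* had the largest change of the family. Its percentile was 90.8 ± 4.56 in GFP (SD, n = 2) and 63.6 ± 0.0374 in *Cdk1-i*, a difference of −27.2 points (SE 9.71, limma adjusted p = 0.863). In the libraries labelled *fzr* it was 53.2 ± 17.3, a difference from GFP of −37.6 points (SE 9.71, limma adjusted p = 0.54). The GFP libraries lay above all 4 others and the comparisons share them, so they are not independent. The fold enrichment of the peak was 9.46 and 6.06 (GFP), 4.82 and 4.65 (*Cdk1-i*) and 5.22 and 2.82 (*fzr*), while its width stayed between 293 and 325 bp in all 6 libraries. Across the other settings and left-out libraries, with labels as given and on the percentile scale, the difference from GFP ranged from −36.7 to −24 points for *Cdk1-i* (adjusted p 0.51 to 1) and from −49.9 to −25.4 for *fzr* (adjusted p 0.0362 to 0.849). The value of 0.0362 was reached without *fzr* replicate 1, where *fzr* replicate 2 stood alone, and without *fzr* replicate 2 the change was −25.4 points (adjusted p = 0.653).

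In *fzr* against GFP, the median change over the 15 members was −4.01 points, with 3 higher and 12 lower, and over the other promoters it was −2.26. Without overlap, 1 member was higher (8.06% of all promoters tested) and 3 were lower (28.4%). The 1 higher member is *mRpL53*, with 89.0 and 93.5 (GFP), 92.5 and 90.7 (*Cdk1-i*) and 93.6 and 95.6 (*fzr*), a change of 3.35 points (SE 2.47). The 3 lower are *mRpL39*, *mRpL16* (−9.13 points) and *mRpL33* (−2.61 points). limma called 0 of 3550 promoters, and at an unadjusted p under 0.05 68 were higher (1.92%) and 253 lower (7.13%), with 0 and 1 of the members, again *mRpL39*. Without *fzr* replicate 2 the median over the members was −0.396 points, with 17 members that had a peak in all 5 remaining lists, without *fzr* replicate 1 it was −9.04, and without GFP replicate 2 it was −8.24. All 4 small-subunit members with 6 peaks lay lower in *fzr* than in GFP by mean, from −0.457 to −21.7 points, with overlapping libraries in each, and so did 2459 of the 3535 other promoters.

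In *fzr* against *Cdk1-i*, the median change was −2.02 points over the members and −1.98 over the other promoters. Without overlap, 2 members were higher (12% of all promoters tested), *mRpL21* (5.22 points) and *mRpL53* (3.01), and 7 were lower (36.1%), the largest of them *mRpS28* (−23.5), *mRpL49* (−14.6), *mRpL22* (−5.48) and *mRpL48* (−5.18). limma called 0 promoters, and at an unadjusted p under 0.05 55 were higher (1.55%) and 185 lower (5.21%), with 0 members in either direction. The median turned to 1.24 points without *fzr* replicate 2 and fell to −6.94 without *fzr* replicate 1. Within a genotype, the replicates differed by a median of 7.95 points for *fzr*, 6.19 for GFP and 1.51 for *Cdk1-i* as single genes over the same 15 members. The median percentile over these members was 93.9 and 90.8 in GFP, 90.5 and 91.1 in *Cdk1-i* and 93.6 and 84.9 in *fzr*. These library medians overlapped between all genotypes, with a pooled SD between replicate libraries of 3.8 points. The median changes above are taken over single genes, a different measure, and cannot be set against this SD.

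**Figure D5:**
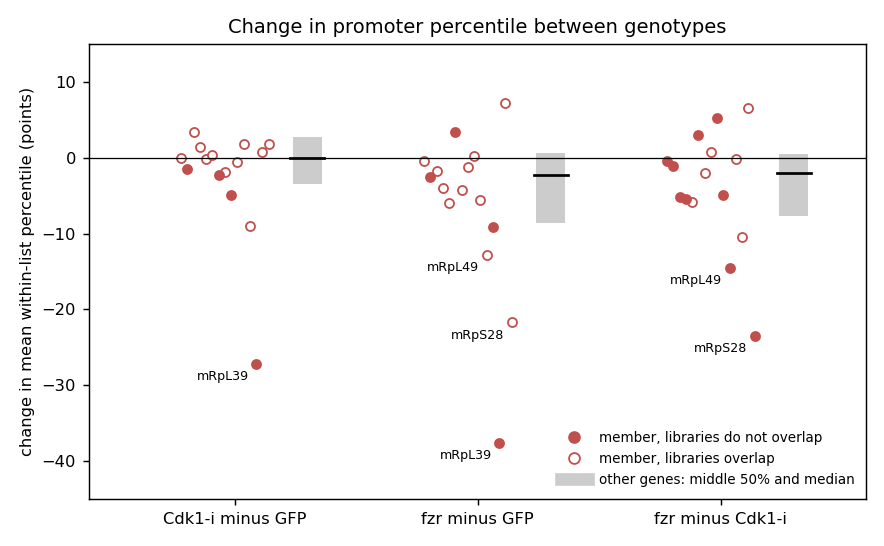
Change in the mean within-list percentile (y axis, points) between genotypes (x axis) for the 15 members with a peak in all 6 lists, in order of mean percentile from left to right, filled where the libraries of the 2 genotypes do not overlap and open where they do. Grey bars show the middle 50% and black lines the median of the 3535 other promoters. *mRpL39* stands apart at −27.2 points in *Cdk1-i* minus GFP and −37.6 in *fzr* minus GFP. The other members with larger changes are *mRpS28* and *mRpL49*. In both, the libraries of *fzr* and GFP overlap, and *mRpL49* is low in *fzr* replicate 2 alone.

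The width of the peaks gave no common shift. The widest on average were *mRpL48* (906 bp), *mRpS21* (857 bp) and *mRpL21* (523 bp) among members with a peak in all 6 lists, and the narrowest *mRpL52* (226 bp), *mRpS6* (226 bp) and *mRpL49* (234 bp). *mRpL48* was 663 and 843 bp wide (GFP), 1010 and 1011 bp (*Cdk1-i*) and 1026 and 886 bp (*fzr*), so GFP lay below all others. *mRpL16* was 576 and 555 bp wide (GFP), 362 and 359 bp (*Cdk1-i*) and 364 and 356 bp (*fzr*), and GFP lay above all others. At *mRpS26* and *mRpL33* the second replicates of GFP and *fzr* were wide (488 and 480 bp, and 438 and 436 bp) and all other libraries narrow, from 180 to 253 bp. The median change over the 15 members was −10.5 bp in *Cdk1-i* against GFP (others −4 bp), −2.5 bp in *fzr* against GFP (others 4 bp) and 4 bp in *fzr* against *Cdk1-i* (others 11.5 bp). In *Cdk1-i* against GFP, 3 members were wider (18.6% of all promoters tested) and 3 narrower (20.8%) without overlap. For *fzr* the counts were 3 wider (13.7%) and 3 narrower (12.5%) against GFP, and 3 wider (21.7%) and 2 narrower (15%) against *Cdk1-i*. The median width over these members was 307 and 383 bp in GFP, 301 and 310 bp in *Cdk1-i* and 264 and 376 bp in *fzr*. These library medians overlapped between all genotypes, with a pooled SD between replicate libraries of 55.4 bp. The median changes in width are taken over single genes, a different measure.

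*mRpS7* was examined because it is the head-to-head neighbour of a gene the study targets, and was chosen after its values were seen. It encodes the homologue of the bacterial protein S7, which shapes the tRNA exit site of the small subunit. Its 5′ end (chr2L, position 10386662, plus strand) is 400 bp from that of *Cdk1* on the opposite strand. GFP replicate 1 had no peak within 500 bp of either. In GFP replicate 2, both libraries labelled *Cdk1-i* and *fzr* replicate 1, a peak of 198 to 234 bp had its summit at −655 to −650 bp from the 5′ end of *mRpS7*, beyond that of *Cdk1*, and ended at −629 to −617 bp, outside the window. In *fzr* replicate 2 the peak was 478 bp wide, with its summit at −676 bp, and ended at −385 bp, and only this list therefore assigns it to *mRpS7*. The percentile of this peak was 75.02 in GFP replicate 2, 32.6 and 28.9 in *Cdk1-i* and 52.3 and 74.2 in *fzr*. The reference promoter of *mRpS7* (chr2L:10386412-10386711) is shown because none of the 6 lists has a peak in these bases. Capitals mark TATAAA on the opposite strand.
mRpS7: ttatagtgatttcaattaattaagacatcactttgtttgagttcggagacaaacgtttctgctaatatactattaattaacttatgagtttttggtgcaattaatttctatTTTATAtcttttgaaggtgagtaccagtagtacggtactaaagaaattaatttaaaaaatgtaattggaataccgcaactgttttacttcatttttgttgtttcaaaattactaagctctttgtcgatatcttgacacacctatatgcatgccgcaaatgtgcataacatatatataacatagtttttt
Neither CAGCTG nor TATCGATA is in it, and its GC content is 28%.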

How the data were processed

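The data are ATAC-seq peak lists of wing discs, 1 for each of 6 libraries. The authors ran the nf-core/atacseq pipeline, with BWA-MEM alignment against dm6, a blacklist filter and MACS2, and each library has its own deposited list. The deposited fold enrichment of each peak is a ratio over the local background of its library. The deposited −log10 p and −log10 q are the peak caller's values, and the deposited score is 10 times the −log10 q as a whole number. The peak-calling cutoff is not given in the sources used here. Because this background differs between libraries, fold enrichment was ranked within each list.

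Each gene was given the peak with the highest fold enrichment among those that overlap the 500 bp on either side of its 5′ end. Percentiles of promoters with a peak in all 6 lists were fitted with limma 3.58.1 in R 4.3.3 (genotype as the only factor, moderated variance with a trend, threshold 0.05). The fit was tested on simulated data, where it missed most planted changes of small and moderate size, so a count of 0 calls does not show that promoters did not differ. Values over the family are counts and medians beside those of all other protein-coding promoters. The members, gene lists and rules were chosen with earlier results of these data known. The genes named are the 6 highest and 6 lowest by mean percentile, those without a peak in all 6 lists, the 4 largest changes without overlap per comparison and the 3 widest and 3 narrowest. Promoter bases were read from the RefSeq dm6 assembly, and none are printed from arm 2R. Alternatives were a window of 250 bp, any transcript start, a −log10 q of at least 5, equal list lengths of 27119 peaks, the nearest summit, ranking by −log10 p, absent peaks as percentile 0, normal scores, a replicate block, exchanged labels and leaving out each library. Peaks of at least 197 bp and peaks that cover the 5′ end were added after seeing the data. Python 3.11.15, NumPy 2.4.6, pandas 2.3.3 and Matplotlib 3.10.9 were used.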

Additional observations from a re-analysis of the deposited data

How the results depend on the processing

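No read depths were used, so no interval could be set on a single peak, and 2 libraries a genotype limit every comparison. The count of members with a peak in all 6 lists was 15, and it fell to 9 with a window of 250 bp (all genes 18.9%) and to 5 where the peak had to cover the 5′ end (all genes 10.7%). Under the other settings that keep all libraries it lay between 12 and 15, and it was 15 to 17 with 1 library left out. The median percentile change over members was −4.01 for *Cdk1-i* minus GFP, −0.125 for *fzr* minus GFP and 2.02 for *fzr* minus *Cdk1-i* with the labels of *Cdk1-i* and *fzr* exchanged. For peaks that cover the 5′ end it was −4.96 for *Cdk1-i* minus GFP. With equal list lengths it was −1.09 for *Cdk1-i* minus GFP, −2.64 for *fzr* minus GFP and −0.229 for *fzr* minus *Cdk1-i*. With 1 library left out it ranged from −1.91 to −0.125 for *Cdk1-i* minus GFP, from −9.04 to −0.396 for *fzr* minus GFP and from −6.94 to 1.24 for *fzr* minus *Cdk1-i*. It was also above 0 for *Cdk1-i* minus GFP with a −log10 q of at least 5 (0.0659) and for *fzr* minus *Cdk1-i* with absent peaks as percentile 0 (0.722). The median width change for *fzr* minus GFP ranged from −17.5 to 62 bp with 1 library left out. The cause of these differences was not tested.

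The number of promoters called by limma was 0 in each comparison and under each alternative, with 1 exception. Without *fzr* replicate 1 it was 262 for *fzr* against GFP, all lower, and 272 for *fzr* against *Cdk1-i* (5 higher and 267 lower), among them *mRpL39* and *mRpL49*, respectively (adjusted p = 0.0362 and 0.0478, limma). These counts are of 3645 promoters tested and 1 of 15 members in each comparison, a similar share. There *fzr* replicate 2 stands alone and is assumed to vary like the other libraries. With the replicate block the number called was 0 in all 3 comparisons. Replicate numbers mark no shared batch in the labels. The deviations of replicate 1 from replicate 2 correlated across promoters with r = 0.203 for GFP and *Cdk1-i*, 0.342 for GFP and *fzr* and 0.12 for *Cdk1-i* and *fzr*.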
